A study of Mus musculus with 80 samples.

Results

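The 7 genes described here, Kit, Stra8, Sohlh1, Sohlh2, Dmrtb1, Elavl2 and Lmo1, are regulators or markers of the step in which mouse spermatogonia leave the undifferentiated state. They were chosen by name, with earlier results of these data known, and all 7 were found among the 27128 gene rows of each deposited table. The samples were male germ cells of postnatal day 5.5, all from mice of the strain B6;CBA-Tg(Pou5f1-EGFP)2Mnn/J and all labelled Oct4-GFP positive; the transgene places green fluorescent protein under control of Pou5f1 (Oct4) sequence. The values come from sorted CD87 positive cells (2 libraries) against CD87 negative cells (2 libraries), and from 71 single cells sorted as negative for KIT protein. CD87, the product of the gene Plaur, is the cell's receptor for urokinase. The labels give no KIT gate for the CD87 libraries, and they name no animals or pools for any sample. The other 5 of the series' 80 samples were not used here.

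In the postnatal testis, undifferentiated spermatogonia respond to retinoic acid by turning on KIT and losing the ability to renew themselves. KIT is a receptor tyrosine kinase for KIT ligand and its protein is the usual surface mark of differentiating spermatogonia. SOHLH1 and SOHLH2 are basic helix-loop-helix transcription factors of the germ line that pair with each other, bind E-box sequences and are required for that step in mice. STRA8 is induced by retinoic acid and is needed for entry into meiosis. DMRTB1, also called DMRT6, is a DM-domain transcription factor that in mice coordinates the end of spermatogonial divisions with the start of meiosis. ELAVL2 is an RNA-binding protein of the Hu family that binds AU-rich elements, and LMO1 is a LIM-only protein that joins transcription complexes through partners such as LDB1.

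Because SOHLH proteins bind E-boxes, promoter sequences are shown for both Sohlh genes, for Kit, and for Dmrtb1, which had the lowest log2 difference of the 7 between CD87 groups. Each runs 5′ to 3′ along its gene from 250 bases before to 50 bases after a transcription start, taken from RefSeq on build GRCm38.p6; capitals mark every match to the E-box CANNTG, which reads the same on both strands.
Sohlh1 promoter, chr2:25847199-25847498, minus strand: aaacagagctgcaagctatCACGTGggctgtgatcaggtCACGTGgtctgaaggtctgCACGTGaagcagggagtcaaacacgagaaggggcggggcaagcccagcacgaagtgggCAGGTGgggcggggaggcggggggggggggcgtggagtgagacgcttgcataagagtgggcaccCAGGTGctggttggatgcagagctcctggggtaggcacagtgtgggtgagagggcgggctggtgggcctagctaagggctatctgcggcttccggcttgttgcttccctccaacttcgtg
Sohlh2 promoter, chr3:55181794-55182093, plus strand: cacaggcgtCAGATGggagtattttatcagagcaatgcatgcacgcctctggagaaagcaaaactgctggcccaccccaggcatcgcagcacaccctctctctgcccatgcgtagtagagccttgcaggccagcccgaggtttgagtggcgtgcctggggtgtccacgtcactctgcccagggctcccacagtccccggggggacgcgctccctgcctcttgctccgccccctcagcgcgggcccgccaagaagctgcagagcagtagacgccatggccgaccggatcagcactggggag
Dmrtb1 promoter, chr4:107684181-107684480, minus strand: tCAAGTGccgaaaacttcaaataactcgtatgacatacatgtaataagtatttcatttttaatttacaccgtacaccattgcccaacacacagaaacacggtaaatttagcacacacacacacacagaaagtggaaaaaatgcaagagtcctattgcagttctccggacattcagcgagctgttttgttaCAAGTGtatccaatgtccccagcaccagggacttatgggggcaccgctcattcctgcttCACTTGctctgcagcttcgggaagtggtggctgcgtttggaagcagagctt
Kit promoter, chr5:75574737-75575036, plus strand: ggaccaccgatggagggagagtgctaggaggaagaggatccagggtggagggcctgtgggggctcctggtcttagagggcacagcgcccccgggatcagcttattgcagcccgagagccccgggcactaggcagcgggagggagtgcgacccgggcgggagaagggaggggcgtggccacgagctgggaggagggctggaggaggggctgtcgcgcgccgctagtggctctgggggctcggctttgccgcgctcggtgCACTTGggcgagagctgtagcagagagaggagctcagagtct
The Sohlh1 window held 5 matches, of which 3 were CACGTG, itself a form of CANNTG. Dmrtb1 held 3 matches, Kit, Sohlh2 and Elavl2 1 each, and Stra8 0. Lmo1 had 1 match, in a window not shown because its start lies 4630 bases from the principal start in the GENCODE annotation. Of 32851 RefSeq windows of the same length, 72.3% held at least 1 CANNTG and 2.10% held at least 5, while 7.15% held a CACGTG and 0.0883% held at least 3. These are matches of letters and say nothing of binding.

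Facts of the sorted libraries that touch the values below come first. Plaur itself had 3.53 and 8.92 TPM in CD87 positive libraries 1 and 2, against 0.46 and 0.97 TPM in CD87 negative libraries 1 and 2, so its order followed the labels. TPM is a transcript level scaled for gene length and library size. The deposited values summed to between 580440 and 635203 TPM a library. A single row, LOC672857, held 31.2% and 24.9% of CD87 negative libraries 1 and 2. It held 24.2% and 23.9% of CD87 positive libraries 1 and 2. The 8 germ cell markers summed to 779 and 881 TPM in CD87 positive and to 694 and 860 TPM in CD87 negative libraries. CD87 positive library 2 stood apart, with 12063 genes above 0 against 15147 to 16267 in the other 3 libraries. A list of 12 macrophage and leukocyte markers also moved with the groups: it summed to 163 and 166 TPM in CD87 positive libraries, against 11.6 and 8.13 TPM in CD87 negative ones, where 6 of the 12, among them Lyz2, were listed at 0 in both. Of the 12, 8 were tested, 6 of them only through their CD87 positive values, so no count of these genes is read; the part of these cells in the results below was not tested. KIT is also found on mast cells and Leydig cells: 7 of 9 mast cell markers were at 0 in all 4 libraries, and 4 of 8 Leydig cell markers were too. The Leydig list summed to 5.02 and 2.69 TPM in CD87 positive and to 7.76 and 6.62 TPM in CD87 negative libraries.

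The CD87 sort addressed whether cells with the receptor differ in the differentiation programme. On a length-scaled level, Stra8 and Sohlh1 were the most abundant of the 7 genes in both groups. Their means were 95.005 ± 1.80 and 90.6 ± 7.55 TPM in CD87 positive cells and 135 ± 21.5 and 117 ± 27.1 TPM in CD87 negative cells (SD, n = 2 libraries each), and the ranges of the 2 genes overlapped within each group. In CD87 positive cells Sohlh2, Kit, Elavl2, Dmrtb1 and Lmo1 followed in that order, with overlapping ranges for Sohlh2 and Kit and for Dmrtb1 and Lmo1. In CD87 negative cells the order after Sohlh1 was Kit, Sohlh2, Dmrtb1, Lmo1 and Elavl2, with overlapping ranges for Sohlh2 and Dmrtb1 and for Lmo1 and Elavl2. Summed over the 7 genes, the libraries held 286 and 296 TPM in CD87 positive cells, against 383 and 447 TPM in CD87 negative cells.

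**Figure D1:**
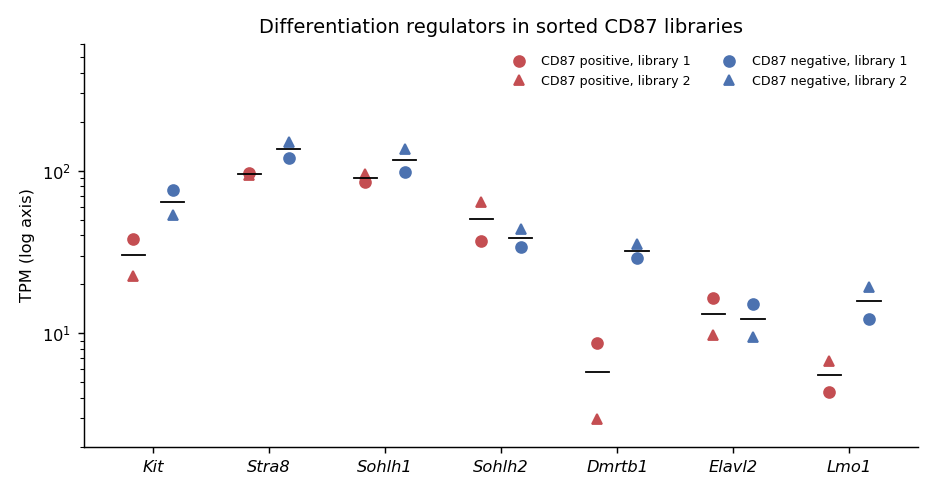
TPM (log axis) of the 7 genes in each CD87 library, with CD87 positive at the left of each pair; circles are libraries 1, triangles libraries 2 and bars the means of 2 libraries. For Kit, Stra8, Sohlh1, Dmrtb1 and Lmo1 both CD87 positive libraries lie under both CD87 negative ones, while Sohlh2 and Elavl2 overlap.

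Kit, the receptor, had 37.7 and 22.5 TPM in CD87 positive libraries 1 and 2, against 75.5 and 53.1 TPM in CD87 negative libraries 1 and 2. Both CD87 positive libraries lay under both CD87 negative ones. The log2 difference, on log2(TPM + 1) and CD87 positive minus negative throughout, was -1.09 ± 0.35 (SE, n = 2 libraries each; 95% interval -1.89 to -0.29), and limma's two-sided test gave an adjusted p of 0.863 over 12715 genes.

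Stra8, the retinoic acid target, had 96.3 and 93.7 TPM in CD87 positive libraries, against 119.6 and 150.01 TPM in CD87 negative ones. The groups did not overlap, and the 2 CD87 positive libraries were close to each other. The log2 difference was -0.49 ± 0.26 (SE; interval -1.07 to 0.09, limma adjusted p = 0.863).

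Neither gene of the SOHLH pair passed, and both intervals included zero. Sohlh1 had 85.2 and 95.9 TPM in CD87 positive libraries, against 97.7 and 136 TPM in CD87 negative ones, a log2 difference of -0.35 ± 0.27 (SE; interval -0.97 to 0.28, limma adjusted p = 0.863). Its highest CD87 positive library and lowest CD87 negative library were almost level. Sohlh2 had 37.05 and 64.2 TPM in CD87 positive libraries, against 33.7 and 43.5 TPM in CD87 negative ones, with overlapping groups and the higher values in the second library of each. Its log2 difference was 0.34 ± 0.35 (SE; interval -0.45 to 1.13, limma adjusted p = 0.889).

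Dmrtb1, the DM-domain factor, had 8.67 and 2.96 TPM in CD87 positive libraries, against 29 and 35.5 TPM in CD87 negative ones. The groups were well apart, with CD87 positive library 2 the lowest of the 4. The log2 difference was -2.42 ± 0.50 (SE; interval -3.55 to -1.29), the 23rd lowest of 12715 genes. With a limma adjusted p of 0.483 and an unadjusted p of 0.00102 it did not pass at 0.05.

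Elavl2, the RNA-binding protein gene, had 16.5 and 9.77 TPM in CD87 positive libraries, against 15.0 and 9.47 TPM in CD87 negative ones. Library 1 was the higher in each group and the groups overlapped. The log2 difference was 0.08 ± 0.45 (SE; interval -0.94 to 1.11, limma adjusted p = 0.984).

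Lmo1, the LIM-only gene, had 4.33 and 6.79 TPM in CD87 positive libraries, against 12.3 and 19.3 TPM in CD87 negative ones. The groups did not overlap. The log2 difference was -1.35 ± 0.47 (SE; interval -2.42 to -0.27, limma adjusted p = 0.863).

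All 7 genes passed the filter for low values (at least 1 TPM in 2 libraries), none of them through one group alone. By limma's adjusted p at 0.05, 0 of 7 passed, where 0.0236% of all genes tested did, all of those higher in CD87 positive cells. At an unadjusted limma p of 0.05, 3 of 7 were lower (Kit, Dmrtb1 and Lmo1) and 0 higher, where the shares over all genes were 1.58% lower and 3.37% higher. That count moved with the setting. With no trend, Kit had an unadjusted limma p of 0.0563. After quantile normalization, Stra8 (unadjusted limma p = 0.0155) and Sohlh1 (0.0463) were under 0.05 too. Both CD87 positive libraries lay under both CD87 negative libraries for 5 of 7 genes, where 14.5% of all genes did, and above them for 0 of 7, where 20.4% did. The median log2 difference of the 7 genes was -0.49, beside 0.01 over all genes. In these pooled-cell libraries, fewer cells that express a gene and less RNA of it per cell cannot be told apart.

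**Figure D2:**
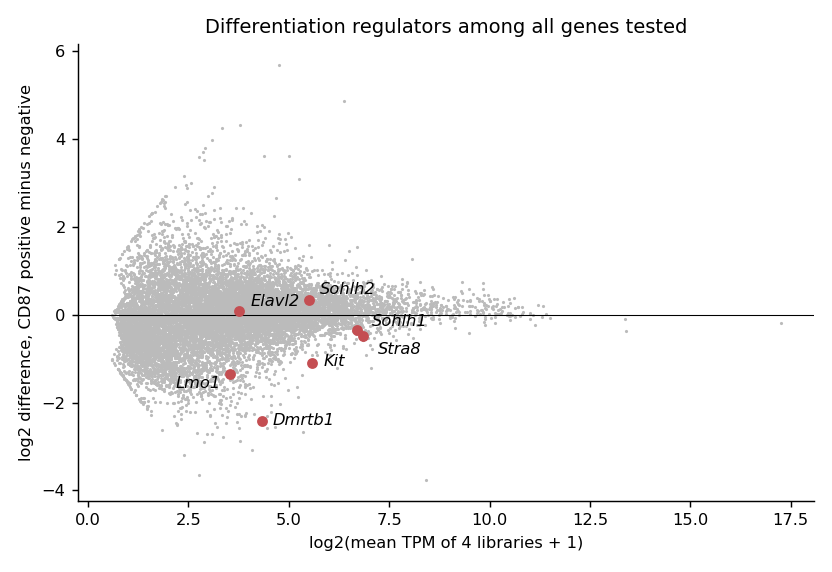
Log2 difference, CD87 positive minus CD87 negative, against log2(mean TPM of 4 libraries + 1) for 12715 genes (grey points), with the 7 regulators in red. Dmrtb1 (-2.42) lies at the lower edge of the grey points, Lmo1 (-1.35) and Kit (-1.09) between it and zero, and Elavl2 (0.08) near zero.

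The calls depended on which libraries entered. With CD87 positive library 1 left out, limma called Kit (-1.45, adjusted p = 0.00414), Dmrtb1 (-3.06, adjusted p = 6.19e-07) and Lmo1 (-1.07, adjusted p = 0.0495) lower in CD87 positive cells, beside 1819 genes lower and 1169 higher over the table. With CD87 positive library 2 left out it called Dmrtb1 (-1.77, adjusted p = 0.00194) and Lmo1 (-1.62, adjusted p = 0.0115), beside 36 genes lower and 65 higher. Over genes, the SD of the log2 difference between libraries was 1.09 for the CD87 positive pair and 0.631 for the CD87 negative pair. In both fits the lone CD87 positive library was assumed to vary like the CD87 negative pair. Without CD87 positive library 2, the fit used the spread shared across genes and gave almost no weight to a gene's own spread. Leaving out a CD87 negative library called none of the 7. Kit, Stra8, Sohlh1, Dmrtb1 and Lmo1 were lower in CD87 positive cells under all 11 alternative settings. For each of them both CD87 positive libraries lay under both CD87 negative ones, so only the other scalings could have changed the sign. Dmrtb1 ranged from -3.06 to -1.77. Sohlh2 was at -0.05 without CD87 positive library 2. Elavl2 changed sign without CD87 positive library 1 (-0.27), without CD87 negative library 2 (-0.22) and under both other scalings.

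**Figure D3:**
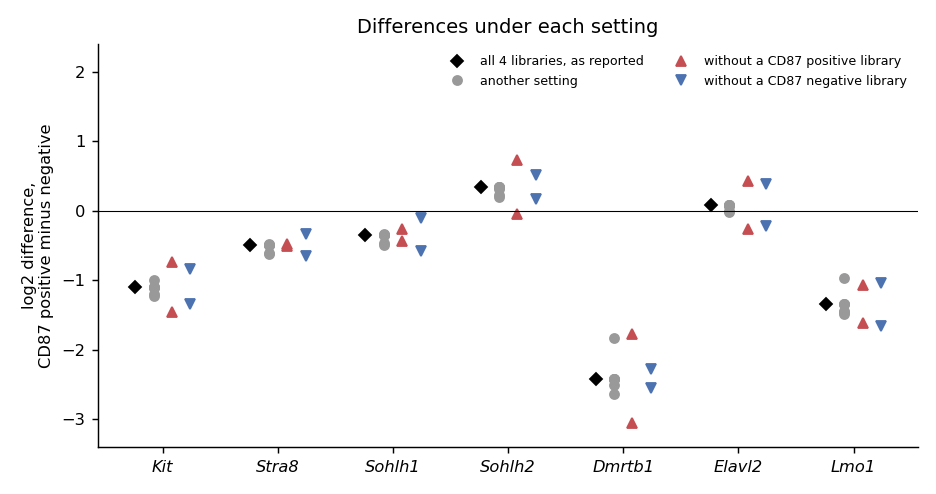
Log2 difference, CD87 positive minus CD87 negative, for each of the 7 genes with all 4 libraries (black diamonds), under other settings (grey circles) and without 1 CD87 positive (red) or CD87 negative (blue) library. Dmrtb1 stays between -3.06 and -1.77, and Elavl2 and Sohlh2 have values on both sides of zero.

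Other genes of the pathway were read from lists. Of 21 other genes of progenitor and differentiating spermatogonia, 19 were tested and 0 passed in either direction; 6 had both CD87 positive libraries under both CD87 negative ones and 4 had them above, where 14.5% and 20.4% of all genes did. The median log2 difference was -0.06 (0.16 without CD87 negative library 2), beside 0.01 over all genes. Ccnd2, a cyclin of the cell cycle, had 143 and 122 TPM in CD87 positive libraries, against 44.2 and 50.7 TPM in CD87 negative ones (1.46, limma adjusted p = 0.457). Crabp1, a retinoic acid binding protein, had 77.9 and 79.5 TPM in CD87 positive libraries, against 153 and 218 TPM in CD87 negative ones (-1.21, limma adjusted p = 0.597). Upp1, a uridine phosphorylase, had 2.16 and 0 TPM in CD87 positive libraries, against 5.63 and 8.02 TPM in CD87 negative ones.

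Of 23 genes that carry the KIT signal, 22 were tested and 0 passed; 6 were above and 3 under in both CD87 positive libraries, where 20.4% and 14.5% of all genes were. The median was 0.13, and 2 of the 22 entered through 1 group alone. Akt1, a kinase downstream of PI3-kinase, had 7.43 and 5.65 TPM in CD87 positive libraries, against 15.2 and 19.1 TPM in CD87 negative ones (-1.27, limma adjusted p = 0.863). Pik3cd, a catalytic subunit of PI3-kinase, had 13.6 and 26.2 TPM in CD87 positive libraries, against 6.79 and 11.8 TPM in CD87 negative ones (1.00, limma adjusted p = 0.863). Pik3ca, another such subunit, had 8.55 and 4.30 TPM in CD87 positive libraries, against 2.67 and 1.99 TPM in CD87 negative ones (1.10, limma adjusted p = 0.863). The named signalling genes thus lay on both sides of zero.

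Among 12 helix-loop-helix partners and reported targets of the SOHLH factors, all tested, 0 passed, 3 were above and 2 under in both CD87 positive libraries, where 20.4% and 14.5% of all genes were. The median was 0.01 (0.61 without CD87 positive library 1). Figla, a helix-loop-helix factor known from oocytes, had 3.15 and 0 TPM in CD87 positive libraries, against 5.59 and 12.7 TPM in CD87 negative ones (-2.22, limma adjusted p = 0.863). Lhx8, a LIM homeobox gene known from oocytes, had 1.07 and 0 TPM in CD87 positive libraries, against 2.54 and 1.66 TPM in CD87 negative ones. Id4, an inhibitor of helix-loop-helix factors, had 34.4 and 24.8 TPM in CD87 positive libraries, against 9.21 and 12.4 TPM in CD87 negative ones (1.37, limma adjusted p = 0.844). Of 18 family members of Dmrtb1, Elavl2, Lmo1 and Kit, 9 were tested and 0 passed; 3 were above and 0 under in both CD87 positive libraries, where 20.4% and 14.5% of all genes were, with a median of 0.10. Dmrt3, of the same family as Dmrtb1, had 16.5 and 14.9 TPM in CD87 positive libraries, against 7.28 and 4.34 TPM in CD87 negative ones (1.32, limma adjusted p = 0.863), while Dmrtb1 was at -2.42. Ldb1, a binding partner of LMO proteins, had 43.8 and 34.2 TPM in CD87 positive libraries, against 30.4 and 33.1 TPM in CD87 negative ones. Pdgfra, a receptor kinase related to KIT, overlapped between the groups (0.50, limma adjusted p = 0.922).

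For comparison, 16 genes of undifferentiated spermatogonia had 14 tested members, of which 0 passed, 12 were above and 0 under in both CD87 positive libraries, where 20.4% and 14.5% of all genes were, with a median log2 difference of 1.28. Of those 14, 2 entered through 1 group alone. Ret, the GDNF receptor kinase, had 67.8 and 64.4 TPM in CD87 positive libraries, against 29.9 and 22.2 TPM in CD87 negative ones (1.32, limma adjusted p = 0.597). Etv5, a transcription factor induced by GDNF, had 47.3 and 43.1 TPM in CD87 positive libraries, against 13.3 and 14.9 TPM in CD87 negative ones (1.61, limma adjusted p = 0.483). Tcl1, a coactivator of AKT kinases, had 43.3 and 93.1 TPM in CD87 positive libraries, against 6.17 and 6.94 TPM in CD87 negative ones (3.10, limma adjusted p = 0.163). Sertoli cell markers, 9 of 11 tested, had a median of -1.05 with sums of 91.5 and 33.8 TPM in CD87 positive libraries, against 97.1 and 166 TPM in CD87 negative ones; without CD87 positive library 2 that median was -0.20, and the part of Sertoli cell RNA in the values of the 7 genes was not tested.

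The single cells were sorted as negative for KIT protein, and the deposited table places them in clusters I (9 cells), II (32), III (24) and IV (6). A cell's deposited values are expected counts, reads assigned to a gene by estimate, and CPM is that count scaled to the cell's total. The cells held between 182584 and 6820422 counts (median 1591516); medians by cluster were 1448517, 1607438, 1686611 and 1125403 counts from I to IV. The labels name no animal, so the cells are 1 sample, and the clusters may have been drawn with these genes, so their levels by cluster are a description. The intervals below use exact formulas that treat cells or reads as independent, and cover counting error only. Reads carry no molecular identifiers, so intervals on summed counts do not measure error in numbers of RNA molecules. CPM is not scaled for gene length and is compared only within a gene.

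Kit RNA was present in many cells of the KIT negative sort but at widely different levels. It reached an expected count of 1 in 36 of 71 cells (50.7%, Clopper-Pearson 95% bounds 38.6% and 62.8%), its median was 0.81 CPM and its highest cell had 302 CPM. Another 9 cells had a value between 0 and 1, and 26 were at 0. At an expected count of 5 the share was 26.8%, and with every cell thinned to 1 common depth it was 33.8%. In 17 cells the count was at least 10, a cut chosen after the values were seen, and these held 98.3% of all Kit counts. The top 10 cells held 91.5%, and 8 of them were in cluster II.

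By cluster, 6 of 9 (I), 16 of 32 (II), 12 of 24 (III) and 2 of 6 (IV) cells had Kit, and the medians were 1.70, 0.67, 0.77 and 0.42 CPM (0 in every cluster at 1 common depth). The highest cell of each cluster had 143, 302, 221 and 1.87 CPM. Counts summed over a cluster and divided by its total gave 29.5 (26.8 to 32.5), 51.8 (50.0 to 53.7), 13.3 (12.2 to 14.5) and 0.61 (0.16 to 1.59) CPM, with exact Poisson intervals. Single cells carried much of those sums: without the cell highest in Kit the values were 9.23, 44.6, 2.03 and 0.37 CPM, so relative to its size the sum in cluster II moved least. Of the 17 cells with at least 10 counts, 11 were in cluster II, 3 each in clusters I and III, and 0 in cluster IV.

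Markers of other KIT-bearing cells were low in these cells. Of 9 mast cell markers, 7 were detected in 0 of 71 cells, which, at a limit of 3 cells, allows a share of up to 4.23% of cells with such a count; of 8 Leydig cell markers, 7 were detected in 0 cells. The exceptions were Gata2 in 25 cells and Hdc in 11, and Star in 61. Germ cell markers such as Ddx4 and Dazl were detected in all 71 cells.

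Stra8 was detected in 43 of 71 cells (60.6%, bounds 48.3% and 72.0%), with a median level of 2.77 CPM. It was present in 6 of 9 (I), 17 of 32 (II), 17 of 24 (III) and 3 of 6 (IV) cells. Cluster medians were 9.25, 0.91, 7.31 and 0.81 CPM, so cells of I and III had the higher middle values while some cells in every cluster were at 0. One cell of cluster I had 448 CPM against 16.2 CPM in the next, and the summed level of that cluster was 90.3 CPM with it and 6.62 CPM without it. One cell of cluster II likewise held 216 CPM, and the summed level there was 34.4 CPM with it and 10.3 CPM without it.

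**Figure D4:**
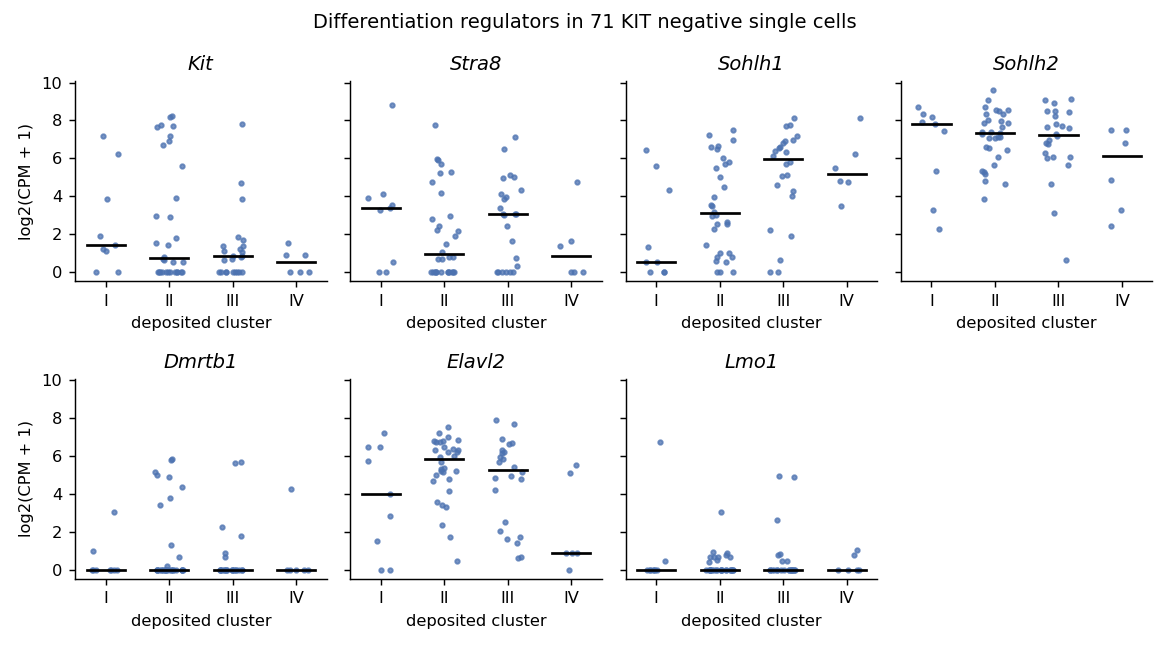
Log2(CPM + 1) of each of the 7 genes in every one of 71 single cells (points), by deposited cluster I to IV, with bars at the medians. Sohlh2 is detected in nearly all cells, Sohlh1 has higher medians in III and IV (61.2 and 35.1 CPM), Elavl2 a low one in IV (0.86 CPM), and Kit, Dmrtb1 and Lmo1 show a few high cells above many near 0.

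Both SOHLH genes were more widely detected than Kit. Sohlh1 was found in 57 of 71 cells (80.3%, bounds 69.1% and 88.8%): 4 of 9 (I), 25 of 32 (II), 22 of 24 (III) and 6 of 6 (IV). Its medians were 0.44, 7.60, 61.2 and 35.1 CPM, lowest in I and highest in III, and at 1 common depth of 182571 counts a cell they were 0, 5.48, 49.3 and 49.3 CPM. In cluster IV the lowest cell had 10.1 CPM, whereas at least 1 cell of every other cluster was at 0.

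Sohlh2 was found in 69 of 71 cells (97.2%, bounds 90.2% and 99.7%), and 0 cells were at exactly 0. Its medians were 222, 158, 150 and 70.04 CPM from I to IV. The ranges overlapped broadly, from 3.79 to 414 CPM in I, 13.5 to 776.5 CPM in II, 0.56 to 567 CPM in III and 4.37 to 183 CPM in IV. The median of Sohlh2 was thus highest in I, the cluster where that of its partner Sohlh1 was lowest. Across the 71 cells the Spearman correlation of the SOHLH genes was -0.05.

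Dmrtb1 was detected in 16 of 71 cells (22.5%, bounds 13.5% and 34%): 2 of 9 (I), 9 of 32 (II), 4 of 24 (III) and 1 of 6 (IV). The median was 0 in every cluster, and the median of the 16 cells with a detected count was 18.8 CPM. The highest cell had 56.9 CPM, in II, and 7 of the top 10 cells were in II. All 16 cells also had Sohlh2, and 14 of 16 had Sohlh1 and 14 of 16 Stra8, where those genes were found in 69, 57 and 43 of all 71 cells.

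Elavl2 was detected in 62 of 71 cells (87.3%, bounds 77.3% and 94.0%): 7 of 9 (I), 31 of 32 (II), 22 of 24 (III) and 2 of 6 (IV). Its medians were 15.1, 55.5, 38.1 and 0.86 CPM, highest in II and lowest in IV. In cluster IV, 3 more cells had a value between 0 and 1, and at the common depth 4 of 6 cells there were detected. The highest cell, with 240.1 CPM, was in III.

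Lmo1 was the least detected of the 7 genes, in 9 of 71 cells (12.7%, bounds 5.96% and 22.7%): 1 of 9 (I), 3 of 32 (II), 4 of 24 (III) and 1 of 6 (IV). A single cell of cluster I, at 106 CPM, held 63.4% of all its counts; it was the cell with 448 CPM of Stra8, and the 1 cell of that cluster with all 7 genes detected. For Lmo1, the next highest cells had 29.9 and 28.7 CPM. Another 12 cells had a value between 0 and 1.

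Each cell held a median of 4 of the 7 genes. The number of cells with 1 to 7 of them was 1, 5, 18, 20, 17, 8 and 2, so cells with 3 to 5 were the most common. The median was 4 in clusters II and III, 3 in cluster I and 3.5 in cluster IV.

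Co-expression with Kit was read as the cells with both genes and as Spearman's rho of CPM over the same 71 cells. These cells share a capture platform, a table and a range of depths. Stra8 and Kit were both found in 22 cells, Kit alone in 14, Stra8 alone in 21 and neither in 14; the product of the 2 shares gives 21.8 cells. Of the 17 cells with at least 10 Kit counts, 11 were also at 10 or more for Stra8, where 27 of all 71 cells were. Another 16 cells were at that level for Stra8 but not for Kit. The rho was 0.24, 0.14 at 1 common depth and 0.23 given total counts and genes detected. It is weak, though without thinning 97.5% of the 12614 genes detected in at least 20 cells had a lower rho with Kit. No such rank was taken at 1 common depth.

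For the SOHLH genes the overlap followed their wide detection. Sohlh2 was found in all 36 cells with Kit and in 33 of the 35 without it (rho 0.07). Sohlh1 was found in 28 of 36 cells with Kit and in 29 without it (rho -0.01), and the product of the shares gives 28.9 cells with both. Among the 17 cells with at least 10 Kit counts, 10 were at 10 or more for Sohlh1, and 17 for Sohlh2. Of all 71 cells, 45 and 68 were.

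Dmrtb1 and Kit were found together in 8 cells, each alone in 28 (Kit) and 8 (Dmrtb1), with a product of 8.11 and a rho of -0.02. At 10 or more counts, 2 of 11 Dmrtb1 cells were also at that level for Kit, where 17 of all 71 cells were. Elavl2 and Kit were both found in 32 cells, Kit alone in 4 and Elavl2 alone in 30 (rho 0.05). Lmo1 and Kit shared 6 cells, with Lmo1 alone in 3, a product of 4.56 and a rho of 0.21. That rho was 0.11 at 1 common depth and 0.108 with values under 0.01 kept. The correlation values of the 6 genes with Kit thus ran from -0.02 to 0.24, and from -0.008 to 0.249 with values under 0.01 kept. Beside them, the 12614 genes detected in at least 20 cells had a median rho with Kit of 0.02, with 5% under -0.18 and 5% over 0.21.

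**Figure D5:**
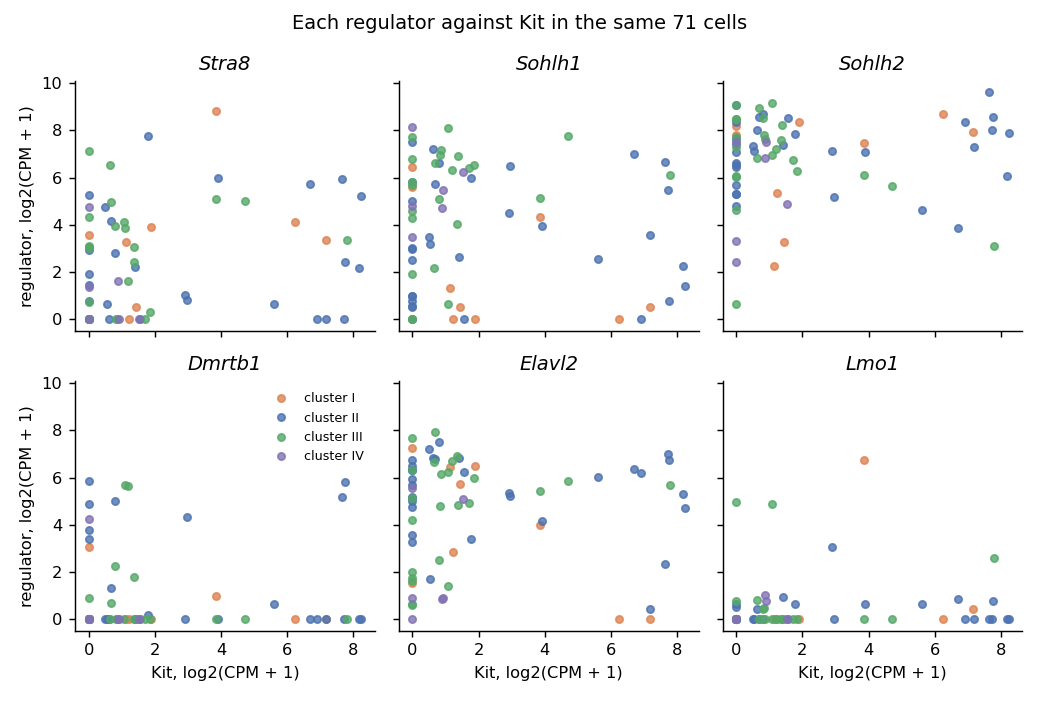
Log2(CPM + 1) of 6 regulators (vertical) against Kit (horizontal) in the same 71 cells, coloured by deposited cluster. The 10 cells highest in Kit, 8 of them from cluster II, run from 0 to 60.2 CPM of Stra8 and from 0 to 125 CPM of Sohlh1. The highest values in the 71 cells are 448 CPM of Stra8 and 280 CPM of Sohlh1. Those 10 cells have Sohlh2 in every case and mostly have little or no Dmrtb1 and Lmo1.

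Within clusters the pairs with Kit did not keep one order. In II (32 cells) rho was 0.31 for Stra8, 0.13 for Sohlh1, 0.21 for Sohlh2, 0.02 for Dmrtb1, -0.01 for Elavl2 and 0.22 for Lmo1. In III (24 cells) it was 0.13 for Stra8, 0.34 for Sohlh1, -0.18 for Sohlh2, 0.09 for Dmrtb1, 0.31 for Elavl2 and -0.03 for Lmo1. At these numbers of cells a rho is imprecise, and the difference in order was not tested. Clusters I and IV hold too few cells for such a value.

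The genes whose CPM was most like that of Kit over the 71 cells were Galnt11 (0.46), Slc16a4 (0.46), Gsg1l (0.43), Rhbdf2 (0.41) and Efna5 (0.40). Galnt11 is an enzyme gene of O-linked glycosylation, Slc16a4 is of the monocarboxylate transporter family and Efna5 is an ephrin. At 1 common depth Galnt11 had 0.42, Slc16a4 0.36, Gsg1l 0.41, Rhbdf2 0.23 and Efna5 0.22. Dmrtb1 and Lmo1 were detected in fewer than 20 cells and could not be ranked. None of the 4 regulators that could was among these genes. Without thinning, Stra8 ranked 311 of 12614 genes, Sohlh2 4114, Elavl2 5079 and Sohlh1 7414. For Stra8 the likest genes were Skil (0.45), 2610020H08Rik (0.42), Pih1d1 (0.41), Nrbf2 (0.40) and Mtmr4 (0.40). Their values at 1 common depth were 0.38, 0.44, 0.26, 0.32 and 0.28 in that order. For Sohlh1 they were Hip1 (0.52), Sycp3, of the synaptonemal complex (0.49; 0.42 at 1 common depth), Irf5 (0.49), Uchl1 (0.44) and Eno1 (0.43); Sycp3 itself was detected in all 71 cells. For Sohlh2 they were Lyar (0.53), Nespas (0.48), 1700021C14Rik (0.47), Prdm16 (0.47) and Tmem59 (0.47); Nespas lies antisense to another transcript, and these counts are not stated to separate strands. For Elavl2 they were Aars, the alanyl-tRNA synthetase (0.45), Uevld (0.45), LOC100043410 (0.43, but -0.03 at 1 common depth), Zfp239 (0.42) and Wdhd1 (0.41). At 1 common depth the values ran from 0.34 to 0.55 for the genes likest Sohlh1 and from 0.30 to 0.46 for those likest Sohlh2. Apart from LOC100043410, they ran from 0.38 to 0.48 for Elavl2. The genes were picked without thinning as the extremes of 12614 values each and are a description.

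In the lists, the genes with the highest and lowest rho with Kit spanned a similar range. Among undifferentiated genes Foxo1 had 0.26, Lhx1 0.23 and Zbtb16 -0.14, and the median of 13 was 0.02. Among other progenitor and differentiation genes Rhox13 had 0.22, Nanos3 -0.16, Lin28a -0.16 and Taf4b -0.16, with a median of -0.06 over 16. Among genes that carry the KIT signal Pik3cb had 0.21 and Pik3r2 -0.16, with a median of 0.04 over 18. Dmrtc2, a family member of Dmrtb1, had 0.25 and was detected in 28 cells, 17 of them in II.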

How the data were processed

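RNA of sorted cells was amplified with Smart-seq2 and single cells were captured on a Fluidigm C1, per the labels' protocols. The authors deposited TPM per gene for the sorted libraries (Trim Galore, RSEM, mm9) and expected counts for the cells (Trim Galore, Salmon, mm9), per the submitters' processing notes; the sources used here name no versions and no annotation. TPM keeps no depth, so the depth of those libraries is unknown. The count table's columns name day 6 where the titles name day 5.5; they were matched by cell number.

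The genes and lists were chosen with earlier results of these data known. Of 150 list symbols, 139 matched directly, 10 by an older symbol and 1 not at all. CD87 groups were compared with limma 3.58.1 (R 4.3.3), with a trend, two-sided and Benjamini-Hochberg adjusted at 0.05, on log2(TPM + 1) for genes that reached 1 TPM in 2 libraries or more; this scale understates changes of low genes. The fit was tested on simulated data. An exact permutation test of 2 against 2 cannot go below p = 0.333. No label ties the libraries to separate animals, so p-values cover the spread between these libraries alone, and that spread may be technical.

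Expected counts under 0.01, numerical zeros of the estimate, were set to 0; this, and keeping them as an alternative, was chosen after seeing the data. CPM used the deposited column totals. No cell was removed and no doublet caller was run. Detection means an expected count of at least 1; counts are reads without molecular identifiers. Pairs were compared by Spearman's rho (scipy 1.17.1), also with each cell thinned to 182571 counts. Named genes were, per list, those called or the 3 with the smallest p, and in cells, from which the text names some, the 3 with the highest and lowest rho with Kit, and per regulator the 5 likest genes. The alternatives were other pseudocounts, filters and scalings, no trend, a replicate block, each library left out, and other detection cuts.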

Additional observations from a re-analysis of the deposited data

Results flagged for a closer look

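In 14 groups of a gene in a cluster of 4 to 10 cells, 6 had a highest cell set far from the next, by a gap that chance gives in about 1 in 20 groups of normally distributed values; many cells here are at 0, so that rate need not hold. In cluster I, the highest cell for each gene had 448 CPM of Stra8 (next 16.2 CPM), 7.35 CPM of Dmrtb1 (next 0.989 CPM) and 106 CPM of Lmo1 (next 0.378 CPM). The Stra8 and Lmo1 values are from the same cell. In cluster IV, the highest cell for each gene had 25.8 CPM of Stra8 (next 2.11 CPM), 280.2 CPM of Sohlh1 (next 73.6 CPM) and 18.3 CPM of Dmrtb1 (the other cells at 0). The Sohlh1 and Dmrtb1 values are from the same cell.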

How the results depend on the processing

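The CD87 comparison called 3 genes higher and 0 lower by limma, with 428 higher and 201 lower at an unadjusted p of 0.05; the cause of the changes below was not tested. With a pseudocount of 0.1, or with no filter, it called 1 higher, and with no trend 0 higher and 0 lower. Leaving out 1 library gave 8 to 1169 higher and 1 to 1819 lower; the lone library was assumed to vary like the other group. With the replicate number as a block, 84 were higher and 46 lower, and Kit (-1.09, limma adjusted p = 0.0342) and Dmrtb1 (-2.42, limma adjusted p = 0.000317) passed. The labels do not say what the number marks, and deviations of same-numbered libraries correlated at 0.07 over genes. With the block, limma's p-values used the spread shared across genes and gave almost no weight to a gene's own spread. Rescaled without the largest row (LOC672857), Stra8 was at -0.60, Sohlh1 at -0.46 and Elavl2 at -0.021. After quantile normalization Elavl2 was at -0.0020, and over all leave-one-out fits it ran from -0.27 to 0.43. Sohlh2 ran from -0.048 to 0.73, Kit from -1.45 to -0.73, Dmrtb1 from -3.06 to -1.77 and Lmo1 from -1.65 to -1.04.

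List medians moved as follows. A pseudocount of 0.1 gave -2.24 (Leydig), -1.56 (Sertoli) and 6.17 (macrophage), and one of 5 gave 0.77 (undifferentiated), -0.39 (Sertoli) and 1.68 (macrophage). Without the filter the macrophage median was 2.21 and the endothelial -0.011. Rescaling gave 3.03 and quantile normalization 3.12 for macrophages. Over the leave-one-out fits the macrophage median ran from 1.70 to 3.22, the Sertoli from -1.75 to -0.20, that of SOHLH partners and targets from -0.13 to 0.61 and that of other differentiation genes from -0.21 to 0.16.

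Detection of Kit was 63.4% of cells at an expected count of 0.5, 26.8% at 5 and 33.8% at 1 common depth. At 0.5 it was 100% for Sohlh2, 95.8% for Elavl2 and 29.6% for Lmo1; Lmo1 was 5.63% at 5, and Sohlh1 69.01% at 1 common depth. Cells with both Kit and the other gene were 47.9% (Stra8), 56.3% (Sohlh1), 63.4% (Sohlh2), 60.6% (Elavl2) and 23.9% (Lmo1) at 0.5. The other detection and co-detection shares stayed within their 95% intervals. Cluster medians were set against the SD between cells, which single high cells make wide, so that comparison could hardly fail. For Kit in cluster II the median was 0.67 CPM and the summed level 51.8 CPM (SD 92.6 CPM). For Stra8 in cluster I they were 9.25 and 90.3 CPM (SD 147 CPM). The number of libraries and, for Kit and Lmo1, counts near 1 limit the precision.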
